A study of Mus musculus with 16 samples.

Results

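The clustered histone genes were the 28 genes whose probe set carried 1 gene symbol and whose symbol, or older Hist1h to Hist4h name, followed the naming of the clustered H1, H2A, H2B, H3 and H4 genes. They were 28 of 19938 genes measured by such probe sets, and the rule used no measured value. By class they comprised 6 H1, 4 H2A, 9 H2B, 3 H3 and 6 H4 genes, each read by 1 probe set. All 28 were found in the RefSeq gene table (GRCm38.p6), 23 of them on chromosome 13, 4 on chromosome 3 and 1 on chromosome 6. The last, H1f10 (older name H1fx), was caught by the letters of the rule. It lies alone outside the histone clusters, and it counts among the 28 unless 27 are named.

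Macrophages were sorted from male C57BL/6 mice and total RNA was hybridised to 16 one-colour arrays, to compare animals with and without the transcriptional repressor Bhlhe40. Large peritoneal macrophages (LPM, from peritoneal lavage) of mice given IL-4c on days 0 and 2 and killed on day 4 made 3 groups of 2 arrays each: Bhlhe40-/- (KO), LysM-Cre+ Bhlhe40 fl/fl (labelled Bhlhe40LysM, here LysM) and Bhlhe40+/+ (WT). Naive LPM from untreated mice made a KO and a WT group of 3 arrays each. Alveolar macrophages (AM, from lung digests of untreated mice) made a KO and a WT group of 2 arrays each. IL-4c is the labels' name for the injected IL-4 preparation; IL-4 is known to activate resident macrophages alternatively and to make them divide in place. LysM-Cre is expressed from the lysozyme M locus in myeloid cells, and the labels do not say which part of Bhlhe40 is flanked by loxP sites or whether an array holds 1 mouse or a pool.

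Most clustered histone genes are replication-dependent. Cells express them in S phase, when newly made DNA must be packed into nucleosomes, whose core holds H2A, H2B, H3 and H4 and whose linker is bound by H1. Cyclin E with Cdk2 activates Npat, the coactivator of these genes, and their transcripts typically end in a stem-loop bound by Slbp in place of a poly(A) tail. A few, among them H1f2 and H2bc4, are also known to give polyadenylated transcripts outside S phase. Resident macrophages divide little at rest.

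RefSeq promoter windows (GRCm38.p6, 250 bases before to 50 bases after the gene start) existed for 24 of the 28 genes. They are shown because the members share sequence features that the rule did not use. The 130 bases before the start of H1f5 and H1f2 (H1 genes that differed in their response below), of H2bc14 and H2bc8 (H2B genes that moved in opposite directions with IL-4c) and of H4c4 were as follows. Letters in capitals mark each TATAAA, each CCAAT, each octamer core TTTGCAT known from H2B promoters and each AAACACA known from H1 promoters, on either strand.
H1f5: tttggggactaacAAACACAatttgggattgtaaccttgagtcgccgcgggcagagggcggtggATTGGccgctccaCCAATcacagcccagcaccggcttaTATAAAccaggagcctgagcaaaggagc
H1f2: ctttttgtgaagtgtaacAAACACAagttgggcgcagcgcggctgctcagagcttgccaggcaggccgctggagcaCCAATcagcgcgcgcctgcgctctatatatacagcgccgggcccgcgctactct
H2bc14: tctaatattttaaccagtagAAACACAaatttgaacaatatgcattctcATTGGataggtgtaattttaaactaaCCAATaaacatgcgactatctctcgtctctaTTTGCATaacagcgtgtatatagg
H2bc8: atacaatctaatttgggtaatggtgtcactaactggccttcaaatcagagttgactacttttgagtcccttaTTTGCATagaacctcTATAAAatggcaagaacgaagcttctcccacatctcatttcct
H4c4: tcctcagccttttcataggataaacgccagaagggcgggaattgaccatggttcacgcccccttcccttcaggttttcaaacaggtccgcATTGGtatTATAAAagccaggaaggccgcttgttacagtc
These stretches lie at chr13:21780626-21780755 on the minus strand for H1f5, and on the plus strand at chr13:23738677-23738806 for H1f2, chr13:21721914-21722043 for H2bc14, chr13:23571270-23571399 for H2bc8 and chr13:23581438-23581567 for H4c4. None of the 4 motifs contains another.

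Over the whole windows, TATAAA was present in 15 of 24 members, against 13.6% of all 32851 RefSeq promoter windows of the same length. CCAAT was present in 20 of 24, against 37.4%. The octamer core TTTGCAT was found in 5 of 7 H2B and 3 of 4 H2A windows, in 1 of 5 H4 windows and in no H1 or H3 window, which made 9 of 24 members against 4.63% of all windows. AAACACA was found in 4 of 6 H1 windows and in 8 of 24 member windows, against 7.18%. H2ac8 and H2bc8 are divided by 179 bases and H2ac1 and H2bc1 by 280 bases and face away from each other, so that windows of each pair overlap and some matches were counted for both genes. A match describes letters and does not show a bound site.

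The values are deposited log2 RMA signals, with array medians of 4.79 to 4.93. Within a group, pairs of arrays had Pearson correlations of 0.989 to 0.995 over the probe sets. The 7 LPM markers measured averaged 9.44 to 10.6 on the LPM arrays, against 4.88 to 5.32 on the AM arrays. The 7 AM markers averaged 10.4 to 10.6 on AM arrays, against 4.79 to 5.21 on naive LPM arrays. By these averages both labelled cell types carried their markers. Marco, an AM marker, did not separate them, at 8.35, 8.24 and 8.59 in naive WT LPM, against 8.40 and 8.49 in WT AM. On IL-4c LPM arrays the AM markers averaged 6.06 to 6.65, and with IL-4c 2 of 7 were higher in WT LPM and 3 of 7 in KO LPM. Of the 7 LPM markers, 3 were lower with IL-4c in WT LPM. In KO LPM 2 were lower and 1 was higher. Bhlhe40 was at 8.01 and 7.90 in IL-4c KO, at 8.75 and 8.83 in IL-4c LysM and at 8.77 and 8.99 in IL-4c WT. It was lower in KO than in WT in all 3 settings, by 0.93 ± 0.19 (SE) under IL-4c, 1.89 ± 0.15 in naive LPM and 2.17 ± 0.19 in AM (limma adjusted p = 0.016, 4.15e-06 and 4.18e-05), whereas LysM minus WT was -0.09 ± 0.19 (adjusted p = 0.877). The signal of the LysM arrays therefore did not check their label, and each direction given for them rests on that label. In KO LPM the Bhlhe40 signal was itself 1.16 ± 0.17 higher with IL-4c than in naive arrays (limma adjusted p = 0.000111). In WT LPM that difference was 0.20 ± 0.17 (adjusted p = 0.445). The interaction, 0.96 ± 0.24, did not pass (adjusted p = 0.112).

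Not every histone gene gave signal above background. RMA gives no detection calls, so background was taken as the 95th percentile of 1027 olfactory receptor genes on each array, 4.37 to 4.69. Between 19 and 24 of the 28 members exceeded it on an array: 23 to 24 on IL-4c LPM arrays, 20 to 23 on naive LPM arrays and 19 to 22 on AM arrays. In all 7 groups 18 members exceeded it on every array. H1f3, the testis linker histone gene H1f6, H2ac8 and H3c7 did so in no group, and H3c15 did so in 1. H2bc1, the gene of the testis H2B, exceeded it in 3 groups, the IL-4c ones, H2bc18 and H2bc22 in 4, H4c8 in 5 and H2ac4 in 6. H2ac1, the gene of the testis H2A, exceeded it on all 16 arrays at 5.43 to 6.33. Most members encode nearly the same protein as other members of their class, and signal of near-identical copies on these probes could not be separated. A level of one gene was not set against a level of another, since probes differ in brightness.

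**Figure D1:**
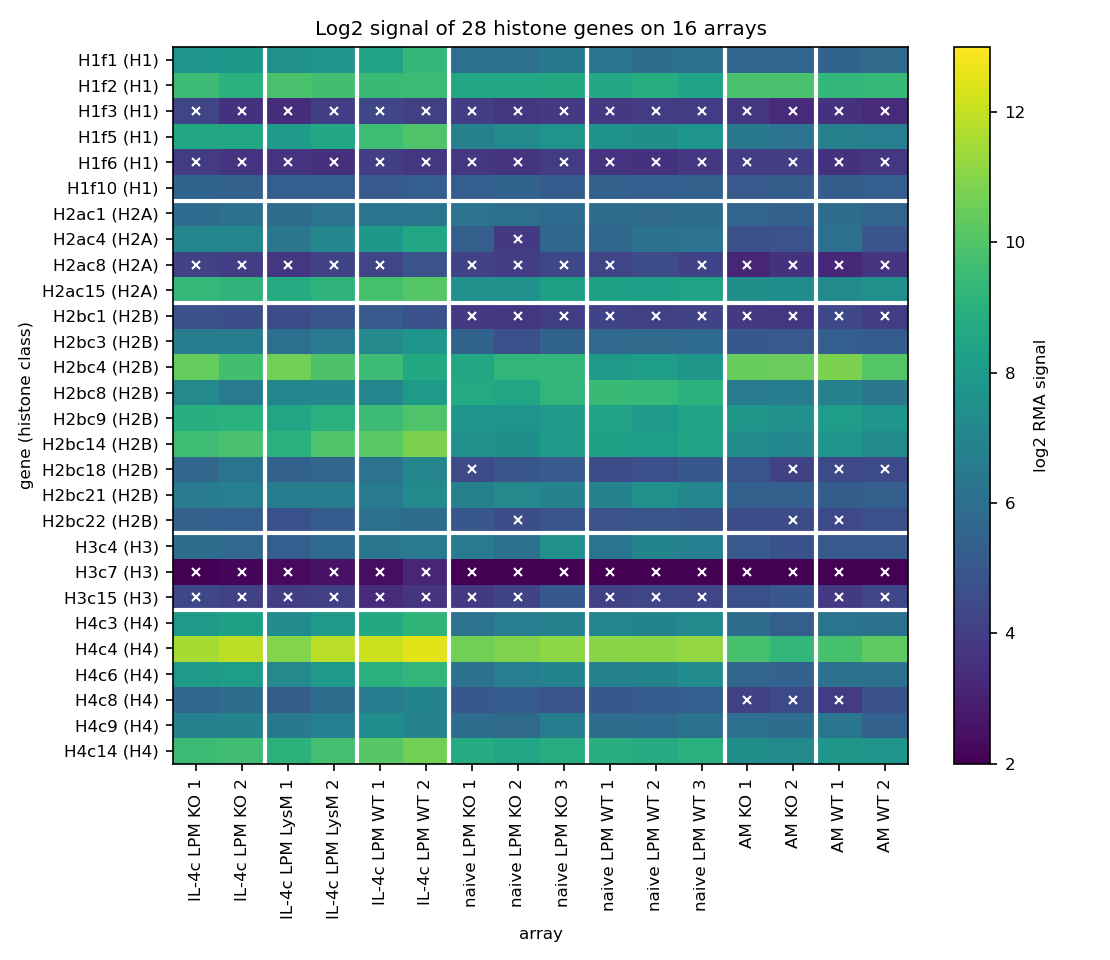
Log2 RMA signal (colour) of the 28 histone genes (rows, by class) on the 16 arrays (columns, by group); a white cross marks a value at or under the 95th percentile of olfactory receptor genes on that array. H1f3, H1f6 and H3c7 carry a cross on all 16 arrays, and most H4 rows are brightest on the IL-4c arrays.

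Most clustered histone genes were higher with IL-4c in WT LPM. The naive mice were untreated, so in each comparison with them IL-4c cannot be told apart from the injections themselves. With IL-4c against naive, 20 of 28 members were higher and 2 were lower at an adjusted p under 0.05 from limma, where 14.5% of all genes tested were higher and 11.4% lower (25.9% in all). The median difference over the members was 1.16 on the log2 scale, against 0.05 over all genes. The H4 genes, all 6 of them, were higher (class median 1.58), as were 7 of 9 H2B genes (1.15), 3 of 4 H2A genes (1.04), 3 of 6 H1 genes (0.59) and 1 of 3 H3 genes (-0.20). H3c7, among the higher, and H3c15, among the lower, were not above background in either group. In bulk samples, more cells that express a gene and more RNA per cell cannot be told apart.

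The linker histone genes split by gene. H1f1 was at 8.42 and 9.30 in IL-4c WT LPM, against 6.26, 5.94 and 6.10 in naive WT LPM. The groups did not overlap, and the rise of 2.76 ± 0.20 (SE), 6.77-fold, was the largest among the members (adjusted p = 5.17e-08). H1f5 was at 9.59 and 9.96 in IL-4c WT LPM, against 7.59, 7.48 and 7.78 in naive WT LPM. It stood apart in the same way, by 2.16 ± 0.20 (4.46-fold, adjusted p = 8.59e-07). H1f2, which is also made as polyadenylated RNA, was at 9.46 and 9.56 in IL-4c WT LPM, against 8.64, 8.84 and 8.42 in naive WT LPM. Both IL-4c arrays were again above all naive ones, with a rise of 0.87 ± 0.15 (adjusted p = 0.000318), and the 95% intervals of H1f2 (0.56 to 1.19) and H1f5 (1.73 to 2.59) did not meet. H1f3 and H1f6, at background, and the solitary H1f10 did not pass the test, at 0.30, 0.22 and -0.18.

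Among the genes of the H2A and H2B dimer, H2ac4 was at 7.87 and 8.56 in IL-4c WT LPM, against 5.73, 6.12 and 6.21 in naive WT LPM, a rise of 2.19 ± 0.41 (adjusted p = 0.000644). H2ac15 was at 9.79 and 10.09 in IL-4c WT LPM, against 8.25, 8.20 and 8.38 in naive WT LPM. Its naive arrays lay close together, and the rise was 1.66 ± 0.19 (adjusted p = 6.97e-06). H2ac1 rose by 0.41 ± 0.15 (adjusted p = 0.0442), a call lost in 8 of 15 alternatives, among them leaving out any 1 of the 5 arrays (adjusted p up to 0.179). H2ac8, under background on all but 2 arrays, did not pass the test, at 0.18 (adjusted p = 0.564). H2bc14 was at 10.18 and 10.84 in IL-4c WT LPM, against 8.26, 8.13 and 8.42 in naive WT LPM. That rise of 2.24 ± 0.26 (4.72-fold, adjusted p = 5.36e-06) was the largest of the H2B genes, and those of H2bc18, H2bc3, H2bc9, H2bc22 and H2bc4 ran from 1.84 down to 1.11. H2bc1 passed as higher too (adjusted p = 0.00192), but its naive arrays, at 4.09 to 4.27, were all under background, so the size of its rise is not given. The H2B genes of chromosome 3 did not move alike, since H2bc18 rose by 1.84 ± 0.26 and H2bc21 was at -0.26 ± 0.20 (adjusted p = 0.401).

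H2bc8 went the other way. It was at 6.99 and 8.0 in IL-4c WT LPM, against 9.46, 9.36 and 9.04 in naive WT LPM. The IL-4c arrays lay below every naive array although they differed from each other by more than the naive ones did, and the fall was 1.79 on the log2 scale, with an SE of 0.27 (3.47-fold lower, adjusted p = 8.49e-05). In IL-4c KO LPM H2bc8 was at 7.18 and 6.54, against 8.72, 8.46 and 9.23 in naive KO LPM, a difference of -1.94 ± 0.27 (adjusted p = 6.67e-05). H2ac8, on the other side of the 179 bases before H2bc8, was at 4.28 and 4.83 in IL-4c WT LPM, against 4.30, 4.58 and 4.23 in naive WT LPM. Those groups overlapped and lay near or under background.

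Of the H3 genes, H3c4 was the one above background in all 7 groups. It was at 6.35 and 6.58 in IL-4c WT LPM, against 6.29, 6.94 and 6.76 in naive WT LPM, which overlapped (-0.20 ± 0.29, adjusted p = 0.689). H3c7 (1.06 ± 0.18) and H3c15 (-0.76 ± 0.24) passed the test under background, and their levels are not read further. Among the members the H3 class thus rested on 1 gene above background. A further 10 H3 probe sets with several gene symbols, described near the end, were 3.09 higher in IL-4c WT than in naive WT LPM, without a test.

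The H4 genes moved together, but signal of near-identical copies could not be separated, so their probe sets may not be independent readings. H4c6 was at 8.97 and 9.23 in IL-4c WT LPM, against 6.88, 6.95 and 7.31 in naive WT LPM. The difference was 2.06 ± 0.23 (4.17-fold, adjusted p = 4.17e-06), with no overlap. H4c4 was at 12.14 and 12.56 in IL-4c WT LPM, against 11.03, 11.03 and 11.23 in naive WT LPM, 1.26 ± 0.24 higher (adjusted p = 0.000908). H4c14, on chromosome 3, was at 10.15 and 10.66 in IL-4c WT LPM, against 8.88, 8.75 and 8.96 in naive WT LPM. It rose by 1.54 ± 0.18 (adjusted p = 8.45e-06), so the chromosome 3 gene moved with those of chromosome 13. H4c3, H4c8 and H4c9 rose by 1.82, 1.63 and 1.18.

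Most of the histone genes were higher with IL-4c in KO LPM too. With IL-4c, 18 members were higher and 2 were lower than in naive KO LPM, where 12.6% of all genes were higher and 9.21% lower (21.8% in all). The median over the members was 0.79, against 0.00 over all genes. Among the 18, H2bc1 was under background on all 3 naive KO arrays, and H2bc18 and H2bc22 each on 1. H1f1 was at 7.76 and 7.85 in IL-4c KO LPM, against 6.03, 6.06 and 6.4 in naive KO LPM, a rise of 1.64 ± 0.20 (adjusted p = 1.99e-05). H1f5 was at 8.53 and 8.55 in IL-4c KO LPM, against 6.84, 7.25 and 7.68 in naive KO LPM, a rise of 1.28 ± 0.20 (adjusted p = 0.000233). The KO naive arrays were spread wider for H1f5 than the WT ones, and IL-4c lay above them all. H2bc14 rose by 2.01 ± 0.26 and H2ac4 by 2.12 ± 0.41 in KO (1 naive KO array of H2ac4 was under background), and the 6 H4 genes by 0.78 to 1.54. Of these, H4c4 and H4c9 lost the call in 4 of 15 alternatives each and H4c8 in 2. The lower genes were H2bc8 and H3c4 (-0.87 ± 0.29, adjusted p = 0.0431). The call of H3c4 was lost in 9 of 15 alternatives (adjusted p up to 0.178), with a difference of -0.48 without naive KO replicate 3.

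**Figure D2:**
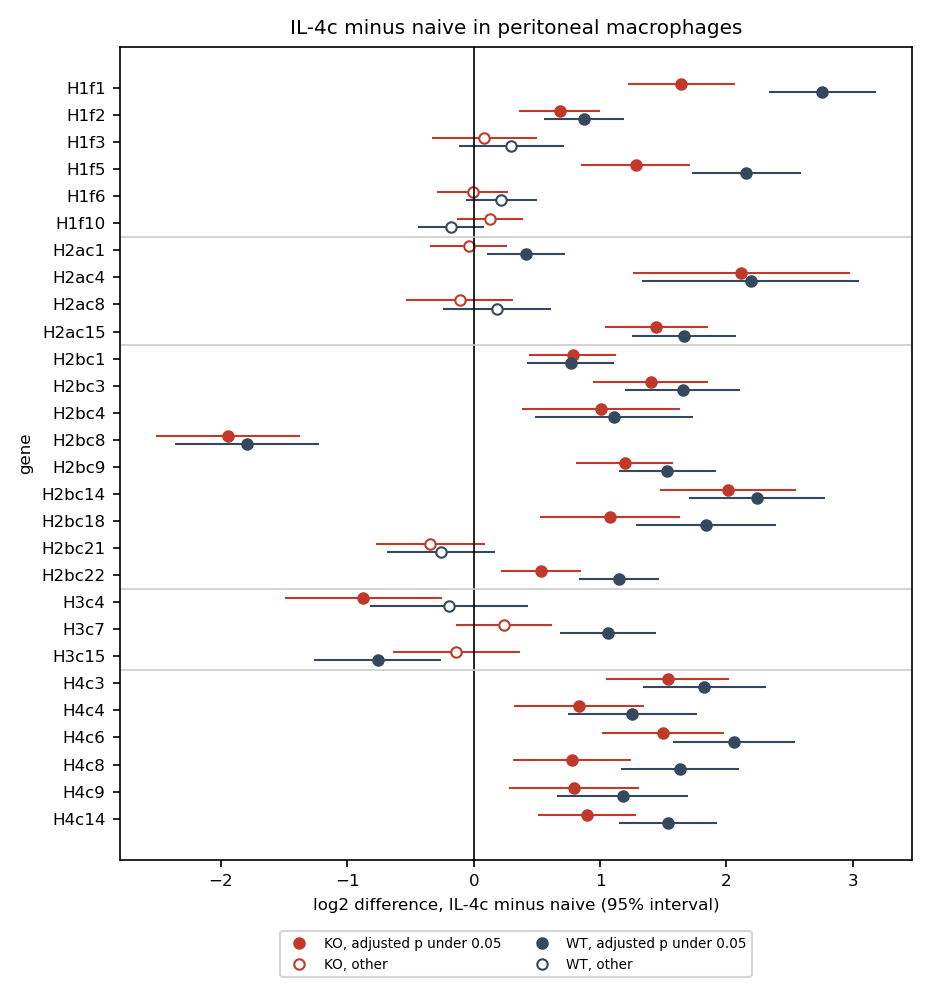
Log2 difference, IL-4c minus naive LPM, for each member (rows) in KO (red) and WT (dark), with 95% intervals; filled points have an adjusted p under 0.05. The 6 H4 genes lie right of 0 in both genotypes, H2bc8 lies left at -1.94 in KO and -1.79 in WT, and 25 of 28 KO points lie left of the WT point.

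The difference between both responses was tested as an interaction. No member passed it with limma and 7 had an unadjusted p under 0.05, as 10.8% of all genes did, while 0.301% of all genes passed (0.211% higher and 0.0903% lower). The KO response minus the WT response was below 0 for 25 of 28 members, with a median of -0.29 over the members and -0.03 over all genes. The lowest value was that of H1f1, -1.12 ± 0.28 (adjusted p = 0.116), followed by H1f5 at -0.87 ± 0.29 (adjusted p = 0.246). Without WT IL-4c replicate 1, H1f1 (-1.55, adjusted p = 0.00968) and H3c7, which is at background, passed and the median was -0.55, and without naive KO replicate 3 the median was -0.17.

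Within IL-4c LPM, 5 members were lower in KO than in WT and none was higher, where 0.737% of all genes were lower and 1.03% higher (1.77% in all). The members' median was -0.63, against -0.01 over all genes, and 25 of 28 lay below 0. The WT arrays are the same ones as in the WT response above and in the LysM comparison below. H1f5 was at 8.53 and 8.55 in KO, against 9.59 and 9.96 in WT. The KO arrays were almost equal and lay below both WT arrays, by 1.23 ± 0.22 (2.35-fold lower, adjusted p = 0.00783). H1f1 was at 7.76 and 7.85 in KO, against 8.42 and 9.30 in WT, where the WT arrays differed by more than the KO arrays (-1.05 ± 0.22, adjusted p = 0.0195).

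The other lower members were H4 genes. H4c6 was at 8.01 and 8.16 in KO, against 8.97 and 9.23 in WT (-1.02 ± 0.25, adjusted p = 0.0481). H4c8 was at 5.65 and 5.98 in KO, against 6.67 and 6.94 in WT (-0.99 ± 0.24, adjusted p = 0.0477). H4c14 was at 9.53 and 9.64 in KO, against 10.15 and 10.66 in WT (-0.82 ± 0.20, adjusted p = 0.0479). None of these groups overlapped, and all 3 adjusted p-values lay just under the threshold. The H4 median was -0.82, that of H2B -0.64, of H2A -0.60 and of H1 -0.24. H2bc14, at 9.58 and 9.83 in KO and 10.18 and 10.84 in WT, did not pass (-0.80 ± 0.28, adjusted p = 0.192). Leaving out 1 array at a time, the count dropped to 0 without WT replicate 2, to 0 without KO replicate 1 and to 1 (H1f5) without KO replicate 2. H1f1 and H1f5 alone passed with arrays centred on their median and with array weights.

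The arrays labelled LysM showed 13 members lower and 1 higher than in IL-4c WT LPM, where 2.06% of all genes were lower and 2.67% higher (4.73% in all). The members' median was -0.93, against -0.01 over all genes. By class 5 of 6 H4 genes (median -1.10), 5 of 9 H2B genes (-0.99), 2 of 6 H1 genes (-0.39), 1 of 4 H2A genes (-0.77) and no H3 gene were lower. H4c6 was at 7.18 and 7.93 in LysM, against 8.97 and 9.23 in WT. The LysM arrays differed by more than the WT arrays and lay below both, by 1.55 ± 0.25 (2.92-fold lower, adjusted p = 0.00189). H1f5 was at 8.08 and 8.61 in LysM, against 9.59 and 9.96 in WT (-1.43 ± 0.22, adjusted p = 0.0014). H2bc14 was at 9.02 and 9.99 in LysM, against 10.18 and 10.84 in WT (-1.01 ± 0.28, adjusted p = 0.0485), and H4c4 was at 10.95 and 11.85 in LysM, against 12.14 and 12.56 in WT (-0.96 ± 0.27, adjusted p = 0.0497). LysM replicate 1 was the lower of the pair in each of these genes.

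The remaining lower genes were H1f1 (-1.23), H4c3 (-1.29), H4c8 (-1.23), H4c14 (-0.98), H2bc3 (-1.22), H2bc18 (-1.08), H2bc9 (-1.02), H2bc22 (-0.99) and H2ac15 (-0.97). The count fell to 3 without LysM replicate 1 and to 3 without WT replicate 2; in each case they were H1f5, H4c6 and H2bc22. The median over the members was -0.51 without LysM replicate 1, -0.70 without WT replicate 2 and -1.17 without LysM replicate 2. In a fit of these 4 arrays alone, 2 members passed, H1f5 and H4c6. Whether the arrays labelled LysM and KO differed from each other was not tested.

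**Figure D3:**
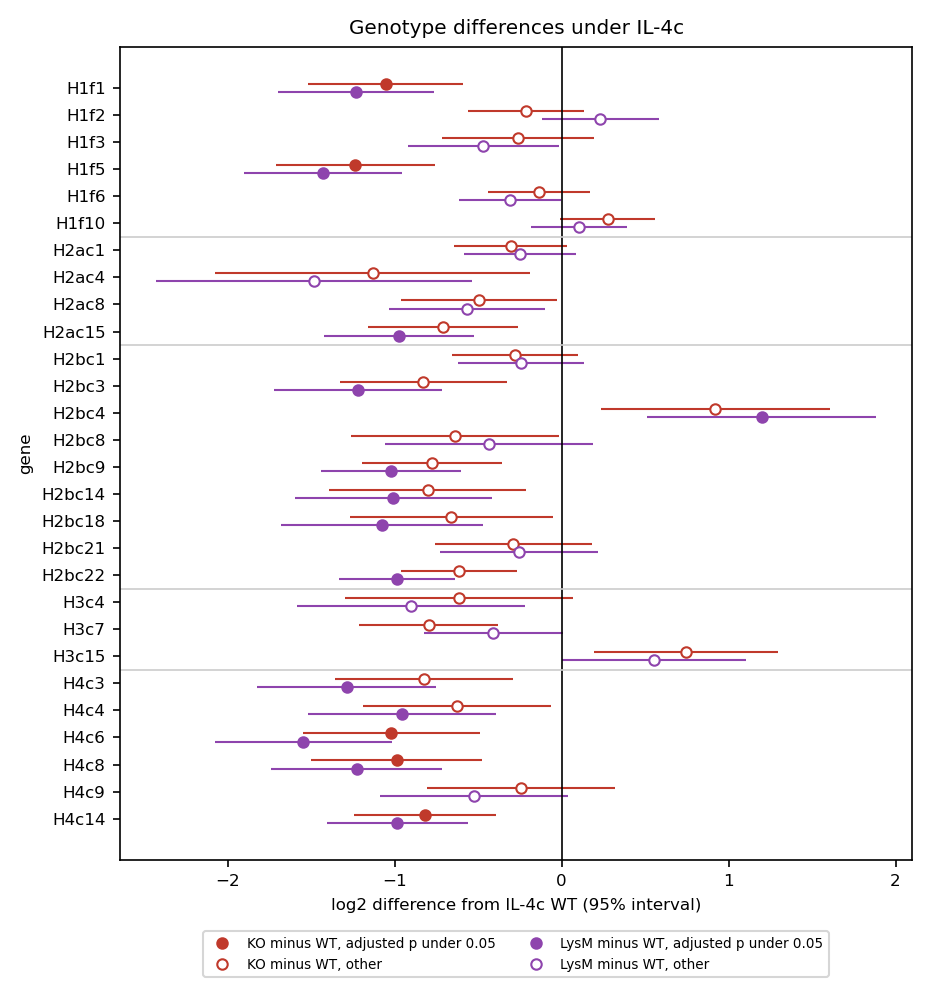
Log2 difference from IL-4c WT LPM for each member (rows), KO minus WT (red) and LysM minus WT (purple), with 95% intervals; filled points have an adjusted p under 0.05. Most points lie left of 0, and H2bc4 lies right of it, at 0.92 in KO and 1.20 in LysM.

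H2bc4 was the member higher in LysM. It was at 10.67 and 9.94 in LysM and at 10.41 and 9.65 in KO, against 9.54 and 8.67 in WT, all under IL-4c. In each group replicate 1 was the higher, and the LysM and KO arrays lay above both WT arrays. LysM minus WT was 1.20 ± 0.32 (2.30-fold, adjusted p = 0.0428), and KO minus WT was 0.92 ± 0.32 (adjusted p = 0.195). The LysM call was lost in 5 of 14 alternatives: a fit of the compared arrays alone (adjusted p = 0.135), array weights (0.0638), a robust variance with intensity trend (0.121), without WT replicate 2 (0.77, adjusted p = 0.398) and without LysM replicate 1 (0.84, adjusted p = 0.366). In naive LPM H2bc4 was at 8.59, 9.22 and 9.24 in KO, against 7.98, 8.17 and 7.83 in WT. The groups did not overlap, but the difference of 1.03 ± 0.26 did not pass (adjusted p = 0.0844), though it did in a fit of these 6 arrays (adjusted p = 0.0206) and with array weights (0.0426). In AM it was at 10.44 and 10.51 in KO, against 10.81 and 10.07 in WT, which overlapped (0.03 ± 0.32). With IL-4c it was higher than in naive LPM in both genotypes, by 1.01 ± 0.29 in KO and 1.11 ± 0.29 in WT. Neither call held without replicate 1 of the IL-4c group (0.63, adjusted p = 0.286, in KO and 0.68, adjusted p = 0.197, in WT). H1f2, the other member known for polyadenylated transcripts, did not pass in any genotype comparison, and KO minus WT was 0.52 ± 0.16 in AM (adjusted p = 0.782) and -0.21 ± 0.16 under IL-4c (adjusted p = 0.659).

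In naive LPM no member passed between KO and WT, where 0.291% of all genes were higher and 0.622% lower in KO (0.913% in all). With limma, 8 members had an unadjusted p under 0.05, where 11.9% of all genes did, and 18 of 28 lay below 0. The median was -0.16, against 0.02 over all genes, and it was -0.08 without WT replicate 2. The lowest was H2ac4, at 5.35, 3.89 and 5.66 in KO, against 5.73, 6.12 and 6.21 in WT (-1.06 ± 0.36, adjusted p = 0.232), with KO replicate 2 under background. Naive KO replicate 3 was the highest KO array for 22 of 28 members, and without it H2ac15 passed as lower (-0.73, adjusted p = 0.0298). In AM no member passed either, where 0.0702% of all genes did (0.0301% higher and 0.0401% lower). There 6 members had an unadjusted p under 0.05 with limma, where 4.87% of all genes did, and 20 of 28 lay below 0. The median was -0.06, against 0.01 over all genes, and it moved to -0.22 without WT replicate 2, -0.12 without WT replicate 1, -0.10 without KO replicate 2, -0.16 with a filter at the array median and -0.01 with arrays centred on their median. The AM difference in H4c6 was -0.58 ± 0.25 (adjusted p = 0.992), with values of 5.64 and 5.44 in KO, against 6.15 and 6.08 in WT.

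**Figure D4:**
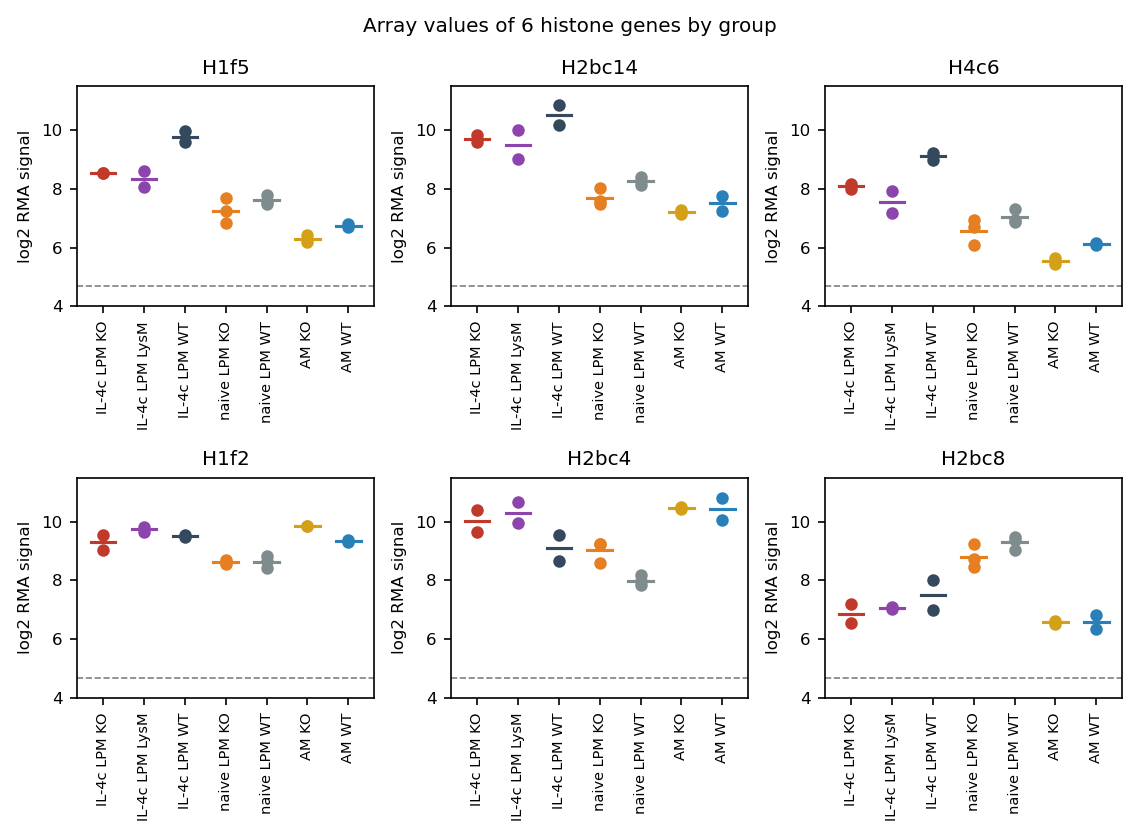
Log2 RMA signal on each array (points) with group means (bars) for 6 histone genes; the dashed line is the highest olfactory receptor level of the arrays, 4.69. H1f5, H2bc14 and H4c6 are highest in IL-4c WT LPM, H2bc4 is lowest in naive WT LPM, and H2bc8 is highest in naive LPM.

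Between the resting WT macrophage types, 12 members were higher and 2 were lower in LPM than in AM, where 12.2% of all genes were higher and 10.3% lower (22.5% in all). The members' median was 0.51, against -0.02 over all genes, and 25 of 28 lay above 0. H2bc8 was at 9.46, 9.36 and 9.04 in naive WT LPM, against 6.82 and 6.35 in WT AM. That difference of 2.70 ± 0.27 (6.5-fold, adjusted p = 4.23e-07) was the largest among the members. H2bc4 was at 7.98, 8.17 and 7.83 in LPM, against 10.81 and 10.07 in AM, 5.44-fold lower in LPM (-2.44 ± 0.29, adjusted p = 4.73e-06). These H2B genes of chromosome 13 thus had the highest and the lowest difference of all members.

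H2bc21 was at 6.88, 7.53 and 7.08 in WT LPM, against 5.25 and 5.33 in WT AM, 1.87 ± 0.20 higher (adjusted p = 1.34e-06). H3c4 was at 6.29, 6.94 and 6.76 in LPM, against 5.10 and 5.16 in AM, 1.53 ± 0.29 higher (adjusted p = 0.000716). Neither gene was higher with IL-4c in WT LPM. Of the H4 genes 5 of 6 were higher in LPM, with a class median of 0.92, among them H4c14 (1.08), H4c4 (1.06), H4c6 (0.93), H4c3 (0.92) and H4c8 (0.82), whose signal in AM was under background on 1 of 2 arrays. Without AM replicate 1, H4c8 was 0.43 higher and did not pass (adjusted p = 0.296). The others were H1f5 (0.88), H2ac15 (0.87), H2bc14 (0.76) and H2ac8 (0.91). H2ac8 was not above background in either group. The call of H2bc14 was lost in 7 of 15 alternatives, with a difference of 0.50 without AM replicate 2 (adjusted p = 0.361). H1f2 was lower in LPM, at 8.64, 8.84 and 8.42, against 9.30 and 9.37 in AM (-0.70 ± 0.15, adjusted p = 0.00179).

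Genes of histone supply were read from lists of regulators, chaperones, variants and S phase genes. Beside these counts stand the shares of all genes. With IL-4c 14.5% were higher and 11.4% lower in WT LPM, and 12.6% and 9.21% in KO LPM. Under IL-4c 0.737% were lower in KO and 2.06% in LysM than in WT. Of 17 measured regulators and processing factors, 7 were higher and none lower with IL-4c in WT LPM, among them the cyclin E genes Ccne1 (2.26 ± 0.16) and Ccne2 (1.67 ± 0.19), their kinase Cdk2 (1.11 ± 0.15) and Slbp (0.59 ± 0.15), and 7 were higher in KO LPM. Under IL-4c, Ccne1 (-0.88 ± 0.18) and Cdk2 (-0.77 ± 0.16) were lower in KO than in WT. In LysM, Ccne2 (-0.91), Slbp (-0.67), Casp8ap2 (-0.59), a protein of the histone locus body, and Cdk2 (-0.58) were lower than in WT. The difference between responses passed for Ccne1 (-1.24), and in naive LPM Lsm10 (-0.73), part of the U7 particle that trims histone transcripts, was lower in KO.

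Of 17 measured chaperones, 8 were higher and 1 was lower with IL-4c in WT LPM. Asf1b (2.52 ± 0.19), which carries H3 with H4, and the assembly factor subunit Chaf1a (2.01 ± 0.22) were higher, as was Hat1 (1.14 ± 0.19), which acetylates new H4. The subunit Chaf1b passed as higher as well, with naive arrays under background at 3.80 to 4.28. Atrx (-0.78 ± 0.12), which acts with Daxx in depositing variant H3, was lower. In KO LPM 5 were higher and 2 lower, where 9.21% of all genes were lower. No chaperone passed between KO and WT under IL-4c, and 4 were lower in LysM than in WT, among them Chaf1a (-0.92) and Asf1b (-0.91). Of 8 measured variant histone genes, 4 were higher with IL-4c in WT LPM: H2ax (2.04), the DNA damage variant, Cenpa (1.55), the centromere H3, H2az2 (1.02) and Macroh2a1 (0.89). None passed between KO and WT, and Cenpa (-0.71 ± 0.20) was lower in LysM.

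All 25 measured S phase genes were higher with IL-4c in WT LPM (median 1.71), and 21 were higher in KO LPM (median 1.04). Of the 25 genes, 21 were above background on every naive WT LPM array and 19 on every naive KO LPM array, so both medians include genes that started at background. Under IL-4c, 8 were lower in KO than in WT (median -0.75) and 17 were lower in LysM than in WT (median -0.81). Their mean per array was 6.82 to 6.98 in IL-4c KO, 6.69 to 6.93 in IL-4c LysM and 7.47 to 7.84 in IL-4c WT. The median of the histone members was 6.68 to 6.74 in IL-4c KO, 6.4 to 6.70 in IL-4c LysM and 7.08 to 7.53 in IL-4c WT. On both measures WT replicate 2 was the highest of all arrays. For single histone genes, LysM replicate 2 was the higher LysM array in 23 of 28 and WT replicate 2 the higher IL-4c WT array in 22 of 28. The mean of 5 proliferation markers was 7.73 to 7.79 in IL-4c KO, 7.08 to 7.76 in IL-4c LysM and 8.27 to 8.66 in IL-4c WT, against 5.78 to 6.52 in naive KO and 6.09 to 6.17 in naive WT LPM. These levels moved with most histone genes between IL-4c and naive LPM, and between genotypes under IL-4c. Without IL-4c this was less clear. In AM, KO minus WT was above 0 for 16 of 25 S phase genes (median 0.12). It was below 0 for 20 of 28 members (-0.06) and 3 of 5 proliferation markers (-0.05). For naive LPM it was below 0 for 14 of 25 S phase genes (-0.03), 18 of 28 members (-0.16) and 4 of 5 proliferation markers (-0.09). The part of S phase and proliferation levels in the histone differences was not tested. The 4 measured B cell markers averaged 4.02 to 4.13 in IL-4c KO and 3.80 to 3.88 in IL-4c WT, against 4.48 to 5.36 in naive KO and 4.84 to 5.0 in naive WT LPM, and 3 of 4 were lower with IL-4c in both genotypes; their part was not tested.

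Between LPM and AM the S phase genes and the histone genes did not point the same way. In WT LPM 7 of 25 S phase genes were lower than in WT AM, where 10.3% of all genes were, and none was higher. Of the S phase genes 24 of 25 lay below 0, with a median of -0.36. By contrast, 25 of 28 histone members lay above 0, with a median of 0.51. The 5 proliferation markers averaged 6.09 to 6.17 in naive WT LPM, against 6.51 to 6.67 in WT AM, and none passed the test. The 4 B cell markers averaged 4.84 to 5.0 in naive WT LPM, against 3.94 to 3.99 in WT AM, and 3 of 4 were higher in LPM (median 1.17); their part was not tested.

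**Figure D5:**
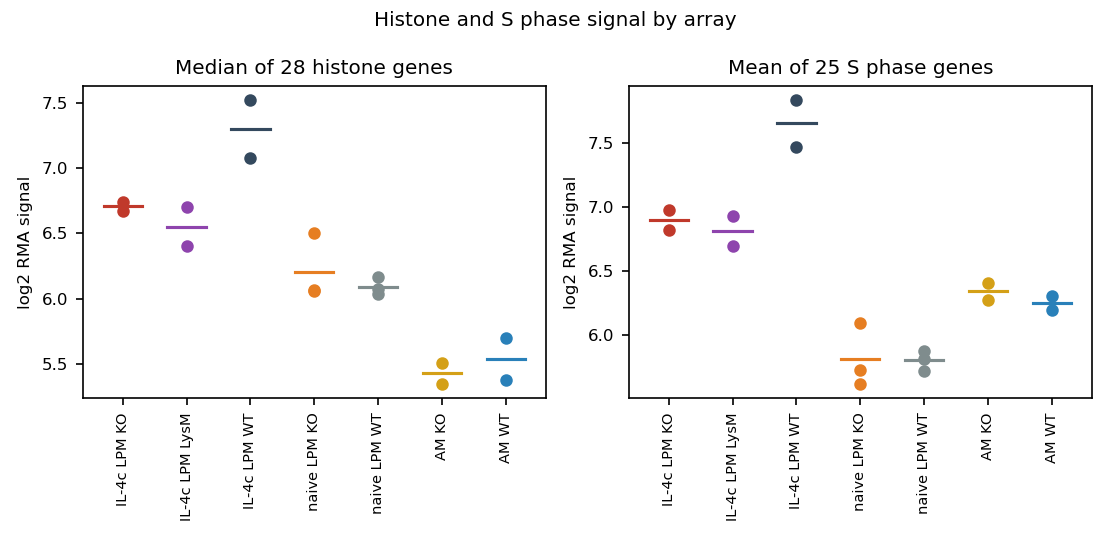
Median log2 RMA signal of the 28 histone genes (left) and mean of 25 S phase genes (right) on each array (points), with group means (bars). Both are highest in IL-4c WT LPM, at 7.08 to 7.53 and 7.47 to 7.84, whereas the AM arrays are the lowest on the left and lie above naive LPM on the right.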

How the data were processed

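Gene expression was measured on 16 one-colour Affymetrix mouse gene arrays of sorted macrophages in 7 groups. The authors deposited log2 values; RMA is the tool that the submitters' processing notes name. RMA makes the arrays' distributions alike, so the values carry nothing on total RNA per cell. No version of it was given in the sources used here. The labels do not say how RNA was primed for labelling, and most histone transcripts lack a poly(A) tail. Groups and replicate numbers came from the titles. Nothing says that replicates were separate mice, so a p-value measures only how these arrays varied. Precision is limited by their small number.

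Of 30177 probe sets, 21789 had 1 gene symbol in the annotation of the array, 1621 had several and 6767 had none. The first kind gave 19938 genes; where a gene had several such probe sets (999 genes), that of the highest mean was kept. Group means over all 16 arrays were fitted with limma 3.58.1 (lmFit and eBayes, R 4.3.3), with 9 residual and 7.57 prior degrees of freedom and a median residual SD of 0.164. There was no filter on low values, since one passed through the IL-4c arrays alone would keep members that had to differ. A gene passed at a Benjamini-Hochberg adjusted p under 0.05 within each of 8 comparisons. Differences are log2, first group minus second.

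The members, the lists and the markers were chosen with earlier results of these data known. Named were called members, at most 20 per comparison, the 3 of each class with the highest mean, the testis genes, H1f2 and H2bc4, and up to 6 called list genes per comparison; further list genes were named after their values were seen. The fit was tested on simulated data. Alternatives were quantile normalization applied again, arrays centred on their median, filters at the array median or the olfactory receptor level, averaged probe sets, a robust variance with intensity trend, a fit of the compared arrays alone, array weights, the replicate block, leaving out each array (a lone array is assumed to vary like the other groups), and leaving out H1f10, the last chosen after seeing the data.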

Additional observations from a re-analysis of the deposited data

Results flagged for a closer look

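A further 26 histone probe sets carried several gene symbols and were outside the comparisons above, and they gave a signal that differed between IL-4c and naive WT LPM. Taking the median over the probe sets of a class on each array and then the group means, IL-4c WT minus naive WT was 3.09 on the log2 scale for 10 H3 probe sets, 1.42 for 6 H4, 1.36 for 2 H2A, 1.30 for 7 H2B and 0.756 for 1 probe set of mixed classes. No test was run on them. All 26 were above 0, and in KO LPM the medians of the single differences were 2.35 for H3, 1.11 for H4, 1.07 for H2A and 1.39 for H2B. Under IL-4c all 26 lay below 0 in KO minus WT, with a median of -0.62, and in LysM minus WT, with a median of -0.79. All 26 also lay below 0 in KO minus WT in naive LPM (median -0.28) and in AM (median -0.30). Probe sets with shared symbols read overlapping sets of near-identical transcripts and are not independent of each other. No member was tested for an outlying array, since groups held 2 or 3 arrays.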

How the results depend on the processing

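The count of members lower in KO than in WT under IL-4c, 5, was 3 after a second quantile normalization, 2 with arrays centred on their median, 3 with only the compared arrays and 2 with array weights, and ran from 0 to 5 when single arrays were left out; its median ran from -0.85 to -0.46. The LysM count of 14 was 2 with only the compared arrays and 3 to 14 without single arrays, with a median of -1.17 to -0.51. In naive LPM the KO count of 0 was 1 with only the compared arrays and 1 with array weights (H2bc4, higher), and 0 to 1 without single arrays. The interaction count of 0 was 0 to 2 without single arrays, with a median of -0.55 to -0.17. With a filter at the array median, 24 members were tested and their median IL-4c response in WT was 1.39 in place of 1.16. That filter left out H1f3, H1f6, H2ac8 and H3c7 and kept H2bc1 through 2 IL-4c arrays alone. Its larger median is therefore no check of the response. Other counts stayed within 1.5 times: without single arrays, 18 to 21 for IL-4c in WT, 15 to 18 for IL-4c in KO, 10 to 13 for LPM against AM and 0 for AM. Over all called members and alternatives, 974 values kept their direction and side of the threshold, 129 lost the call and 0 reversed. These counts include 2 alternatives that could not change a member's difference. Each member had 1 probe set, so averaging probe sets acted only through other genes, and leaving out H1f10 did not redo the fit. Deviations of arrays with the same replicate number correlated at -0.12 to 0.11 over all genes. Within a group of 2 arrays the deviations mirror each other, so 2 such groups gave the same value for both replicate numbers. These values do not settle whether the numbers pair the samples. With the replicate block the counts were 5 for KO and 14 for LysM under IL-4c. They were 21 and 19 for IL-4c in WT and KO, 13 for LPM against AM and 0 for the others. Leaving out H1f10 (27 members, chosen after seeing the data) could change no count of called members, since H1f10 passed in no comparison.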
